A study of Mus musculus with 4 samples.

Results

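The genes described here are 9 immediate early and activity-induced genes, namely FOSL1, FOSL2, MAFF, KLF6, IER2, IER3, DUSP6, GADD45A and CCN1. Their members on the array are the spots for which the platform annotation gives 1 of these symbols and no other, and all 9 genes were found. They hold 15 of the 8496 single-gene clones, and 9 of the 6284 genes, among 9600 spots. Symbols are given in human form by the platform, although the RNA was from mouse, and whether each clone is human or mouse was not checked.

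RNA came from dorsal root ganglion (DRG) neurons of NIH Swiss mice, taken at embryonic day 13.5 and grown for several weeks in compartmented (Campenot) chambers. In these chambers axons cross beneath a partition into a separate compartment, free of cell bodies by visual inspection, and the RNA of each side can be harvested on its own. The 4 conditions were axons stimulated for 2 h, axons left unstimulated, cell bodies stimulated for 2 h and cell bodies left unstimulated, and stimulation was electrical, through platinum electrodes. Every condition was 1 pool of coverslips on 1 nylon membrane array of cDNA clones. No replicate was therefore at hand and no p-value is given, and 1 array per condition limits how precise any value can be. In pooled RNA, fewer cells or axons of a type and less RNA per cell cannot be told apart.

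Immediate early genes are transcribed within minutes of a stimulus without new protein synthesis. In neurons, calcium entry during firing activates kinases that phosphorylate CREB and serum response factor partners, which act at cAMP response elements and CArG boxes in such promoters. FOSL1 and FOSL2 encode Fos family proteins that pair with Jun proteins to form AP-1, MAFF a small Maf protein, KLF6 a zinc finger factor, and IER2 and IER3 short immediate early proteins. DUSP6 is a phosphatase that inactivates ERK and so feeds back on this signalling, GADD45A is a stress and growth arrest protein, and CCN1 is a secreted matrix protein.

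Promoter sequence from RefSeq (build GRCm38.p6, from 250 bases before to 50 after each start) was at hand for 7 of the 9 genes, with 9 promoters in all, and those of Fosl1 and Ier2 were not used here. It was searched on both strands for the full cAMP response element TGACGTCA, the AP-1 site TGANTCA and the CArG box. The single match among these 9 promoters was a cAMP response element in 1 of 3 Maff promoters, shown because MAFF had the highest cell body response of the 9 genes. The element begins 29 bases before a transcription start, and the stretch shown is chr15:79347480-79347509 on the plus strand, with the element in capitals.
Maff: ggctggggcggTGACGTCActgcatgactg
The element was found in 1.79% of the 32851 promoters in the table, the AP-1 site in 7.81% and the CArG box in 1.63%. A match is a run of letters and was not set against binding data.

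Spot intensities were deposited without scaling between arrays, so each was turned into a z-score, the log10 intensity relative to the mean and SD of all spots of its array. A response is given as a z ratio, the stimulated minus the unstimulated z-score in units of the SD that such differences had across the membrane, and 1.4 in size is the threshold the methods state. Array medians were 102.5 with and 89.3 without stimulation in axons, and 118.1 with and 159.7 without it in cell bodies. The stimulated array therefore had a median 1.15 times that of the unstimulated array in axons and 0.740 times in cell bodies (log2 0.20 and −0.44), and changes are reported relative to these shifts. All 15 member clones lay above the 95th percentile of the blank spots on each array. On stimulated and unstimulated axons, 88.4% and 94.6% of all single-gene clones did. On stimulated and unstimulated cell bodies 96.1% and 97.6% did, but there that percentile was 10, which appears to be a fill-in. The smallest margin was on stimulated axons, where the lowest member clone read 44.45 and that percentile was 42.5. The only error measure available was agreement between clones of 1 gene. Over 1059 genes with 2 clones, the SD of a single clone was 0.87 z ratio units in axons and 0.81 in cell bodies, and for genes whose clones were both above the array mean it was 0.54 (164 genes) and 0.32 (209 genes). This spread covers clones and spots, not cultures.

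In axons, no member passed the threshold upward, and 1 of 15 clones, a clone of CCN1 just below the array mean, passed it downward. Among all single-gene clones 8.95% passed in either direction. FOSL1, FOSL2, MAFF and KLF6 had the highest gene values, at z ratios of 0.73 to 0.93, while IER2, IER3, DUSP6 and GADD45A lay between 0.033 and 0.18. Of the 9 genes 8 were above 0, as were 12 of 15 clones, against 51.6% of all single-gene clones. The median of the member genes was 0.18, and that of all genes was 0.024. Brighter clones were more often above 0 in axons, with 59.4% of the 3337 clones above the array mean, and 9 member clones belonged to these, 8 of them above 0. In cell bodies, no member passed the threshold, which 4.88% of clones did. There 10 of 15 clones and 6 of 9 genes were above 0, set against 55.4% of all clones. Of the 10 member clones above the array mean 7 were above 0, against 71.4% of the 3703 such clones. Of the 5 below the array mean 3 were above 0, against 43.1% of such clones. The member and overall gene medians in cell bodies were close, at 0.054 and 0.047.

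**Figure D1:**
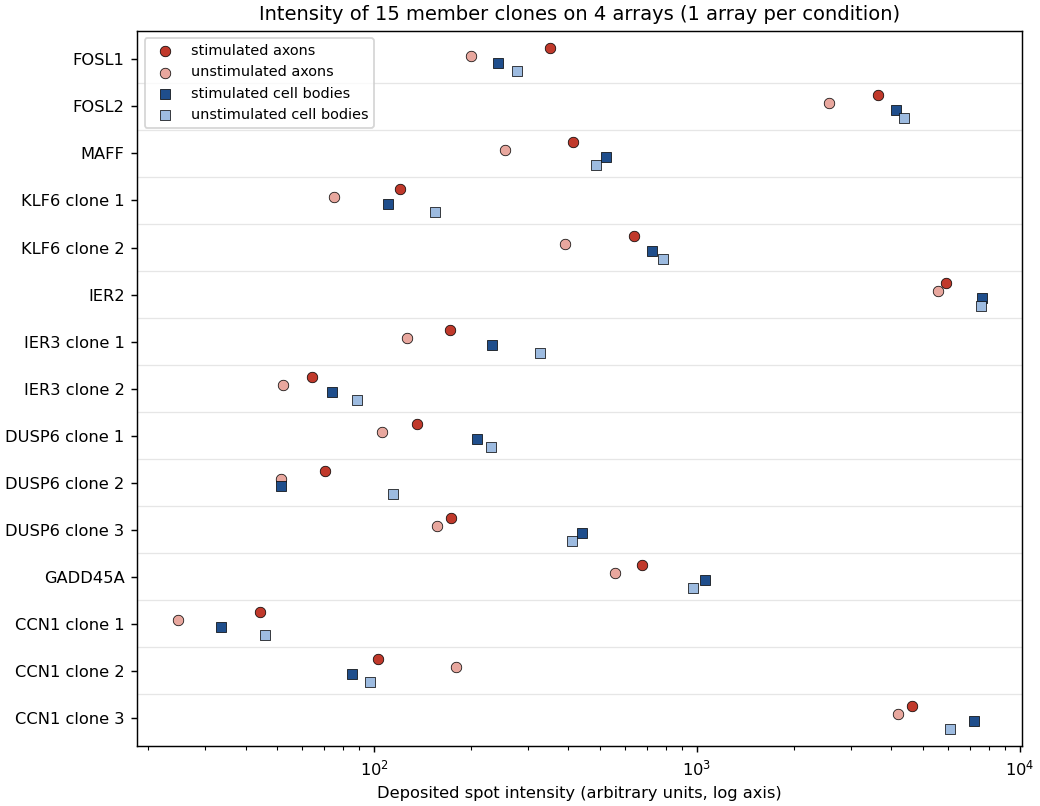
Deposited intensity (arbitrary units, log axis) of the 15 member clones, 1 point for each of the 4 arrays; there are no replicates and so no error bars. In axons 14 of 15 clones read higher with stimulation before scaling, and CCN1 clone 2 stands alone with 102.84 in stimulated and 179.05 in unstimulated axons.

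Before scaling, 14 of 15 member clones were brighter on stimulated than on unstimulated axons, but so were 73.0% of all single-gene clones. In cell bodies 5 of 15 were brighter with stimulation, and 24.96% of all clones were. After each array was divided by its median, 11 of 15 member clones were brighter with stimulation in either compartment. So was the median single-gene clone. Its log2 ratio before scaling was 0.25 in axons and −0.25 in cell bodies, above the array shifts of 0.20 and −0.44. Relative to their arrays, 6 of the 15 clones had their highest z-score on stimulated axons and 7 had their lowest on unstimulated axons, set against 29.7% and 24.1% of all clones. With 1 array per condition, neighbours in such an order cannot be separated from the error between arrays.

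FOSL1, a Fos family partner of Jun, read 350.28 in stimulated and 200.09 in unstimulated axons, with 241.76 in stimulated and 276.75 in unstimulated cell bodies. It was the one member with its highest raw intensity on stimulated axons, and it had the highest axon response of the 9 genes. Its z ratio was 0.93 in axons and 0.21 in cell bodies, and scaled to the array medians the ratio of stimulated to unstimulated was 1.52 in axons and 1.18 in cell bodies. Its axon value exceeded 98.0% of the clones above the array mean and was larger than the 0.54 SD of such a clone, yet below the threshold. It was above 0 under all 8 alternatives, at 0.68 to 1.81 on the z ratio scale and at 0.61 as a median-centred log2 ratio. It passed the threshold with normexp (1.81) and with spots above the array mean alone (1.47). That last choice changed only the SD used as divisor. Neither it nor the other deposited table, which was identical, could change a sign. With axons set against cell bodies, FOSL1 had z ratios of 0.74 with stimulation and 0.24 without.

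FOSL2, the other Fos family gene, read 3648.06 in stimulated and 2562.2 in unstimulated axons, with 4132.96 in stimulated and 4381.95 in unstimulated cell bodies. Its z ratio of 0.73 in axons stood beside −0.17 in cell bodies, and the response was thus above 0 in axons alone. The median-scaled ratio, by contrast, was 1.24 in axons against 1.28 in cell bodies, and the sign in cell bodies thus depends on the scaling. Like FOSL1, it was above 0 in axons under all 8 alternatives, at 0.38 to 1.38 on the z ratio scale and at 0.31 as a log2 ratio. With axons set against cell bodies, FOSL2 had z ratios of 0.75 with stimulation and 0.14 without. The value without stimulation was below 0 with quantile normalization (−0.25), loess (−0.30) and normexp (−0.20). The value with stimulation stayed above 0, but ranged from 0.18 with loess to 1.80 with the robust z-score, and was 0.024 as a log2 ratio.

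MAFF, which lacks a transactivation domain and pairs with other basic leucine zipper proteins, read 414.42 in stimulated and 254.35 in unstimulated axons, with 524.06 in stimulated and 487.27 in unstimulated cell bodies. It was the only member gene above 0.5 in both compartments, with z ratios of 0.79 in axons and 0.52 in cell bodies. Among clones above the array mean, 95.7% were lower in axons and 91.7% in cell bodies. The axon value fell to 0.12 when differences were centred by place on the membrane, an alternative chosen after seeing the data, and the cell body value to 0.24. With normexp the axon value was 1.57, past the threshold. MAFF passed the threshold in cell bodies, at 1.68, with the smaller divisor from spots above the array mean alone.

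KLF6, a Krüppel-like zinc finger factor, had 2 clones. Clone 1 read 120.06 in stimulated and 74.96 in unstimulated axons, with 110.36 in stimulated and 154.68 in unstimulated cell bodies. Clone 2 read 638.88 in stimulated and 389.27 in unstimulated axons, with 727.42 in stimulated and 785.84 in unstimulated cell bodies. Both were higher on stimulated axons, with z ratios of 0.61 and 0.85 and nearly the same median-scaled ratios of 1.39 and 1.43. Their cell body z ratios were −0.081 and 0.13, on either side of 0. Without stimulation, axons were below cell bodies in both clones (−0.45 and −0.27), and with stimulation the values were 0.032 and 0.23.

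In spot order KLF6 clone 2 lies between NAT9 and MCM2, whose spots are bright. NAT9 read 2832.77 in stimulated and 1896.54 in unstimulated axons and had an axon z ratio of 0.81, close to the 0.85 of this clone, while MCM2 had 0.59. Centring by place on the membrane brought clone 2 to 0.079 and clone 1 to 0.37, with the sign kept, whereas normexp gave clone 2 a value of 1.69, past the threshold. The part of neighbouring signal in these values was not tested.

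**Figure D2:**
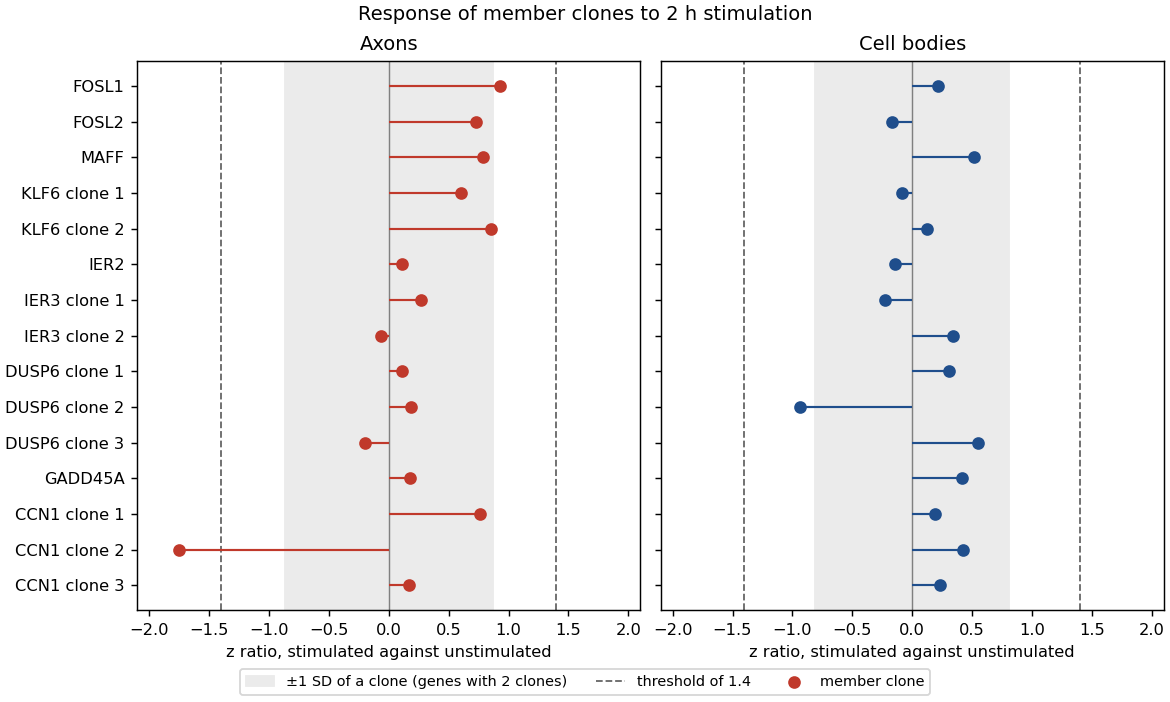
z ratio of stimulated against unstimulated for each member clone in axons and in cell bodies; dashed lines mark the threshold of 1.4 and the grey band ±1 SD of a single clone, taken from genes with 2 clones. FOSL1, FOSL2, MAFF and KLF6 lie between 0.61 and 0.93 in axons, and CCN1 clone 2, at −1.75, is the only clone beyond a dashed line.

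IER2, a short nuclear protein, read 5905.95 in stimulated and 5571.71 in unstimulated axons, with 7624.83 in stimulated and 7585.19 in unstimulated cell bodies. These intensities barely differed, and the z ratios were 0.11 in axons and −0.14 in cell bodies. The axon value had the other sign under 4 of 8 alternatives, so no direction can be given. Axons were above cell bodies at 0.72 with stimulation and 0.55 without, but with stimulation the z ratio was below 0 under loess (−0.17), quantile (−0.19) and the log2 ratio (−0.16), and past the threshold under the robust z-score (1.89).

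IER3, which is known to act in survival and ERK signalling, had 2 clones. Clone 1 read 171.94 in stimulated and 126.57 in unstimulated axons, with 232.66 in stimulated and 326.92 in unstimulated cell bodies. Clone 2 read 64.45 in stimulated and 52.3 in unstimulated axons, with 74.07 in stimulated and 88.85 in unstimulated cell bodies. Their signs were opposite in each compartment, at 0.27 and −0.064 in axons and at −0.23 and 0.34 in cell bodies. All these differences were below the SD of 1 clone. Clone 2, a dim one, follows the bright spot of SF3A1 (1817.18 on stimulated and 1722.71 on unstimulated axons).

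DUSP6, the cytoplasmic ERK phosphatase, had 3 clones. Clone 1 read 135.51 in stimulated and 105.78 in unstimulated axons, with 207.71 in stimulated and 230.93 in unstimulated cell bodies. Clone 2 read 70.72 in stimulated and 51.6 in unstimulated axons, with 51.6 in stimulated and 114.1 in unstimulated cell bodies. Clone 3 read 173.04 in stimulated and 156.75 in unstimulated axons, with 440.96 in stimulated and 410.83 in unstimulated cell bodies. In axons the 3 clones stayed close to 0, at 0.11, 0.19 and −0.20. In cell bodies they split, at 0.31, −0.93 and 0.55, and the mean of −0.027 hides this. Clone 3 exceeded 93.3% of the clones above the array mean and passed the threshold at 1.77 with the smaller divisor from those spots. Clone 2 passed downward at −1.60 after normexp. Clone 3 follows the bright FOXM1 spot (4297.34 on stimulated and 3899.22 on unstimulated cell bodies, z ratio 0.17). All 3 clones had lower z-scores in axons than in cell bodies without stimulation (−0.50, −0.59 and −0.75), and with stimulation the values were −0.62, 0.19 and −1.24.

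GADD45A, a growth arrest and DNA damage protein, read 677.1 in stimulated and 556.47 in unstimulated axons, with 1055.62 in stimulated and 968.65 in unstimulated cell bodies. Its order was the reverse of FOSL1, with a larger z ratio in cell bodies (0.41) than in axons (0.18), though neither passed the threshold. Under the robust z-score the cell body value was −0.16, and its axon value was above 0 under all 8 alternatives. Axons and cell bodies differed little, at −0.17 with stimulation and −0.018 without.

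CCN1, a secreted matricellular protein, had 3 clones that disagreed in axons. Clone 1 read 44.45 in stimulated and 24.63 in unstimulated axons, with 33.54 in stimulated and 46.1 in unstimulated cell bodies. Clone 2 read 102.84 in stimulated and 179.05 in unstimulated axons, with 85.36 in stimulated and 97.22 in unstimulated cell bodies. Clone 3 read 4626.47 in stimulated and 4201.3 in unstimulated axons, with 7202.8 in stimulated and 6063.13 in unstimulated cell bodies. Only clone 2 was less intense on stimulated than on unstimulated axons, and its unstimulated axon value stood apart from its other 3 values. Its axon z ratio was −1.75, against 0.76 and 0.17 for clones 1 and 3, so the gene mean of −0.27 became 0.47 without clone 2. Clone 1 was the dimmest member clone, close to the 95th percentile of the blank spots on stimulated (42.5) and unstimulated axons (21.9). The median of the blank spots was 22.98 on stimulated and 11.79 on unstimulated axons. Its part in the value of clone 1 was not tested. For clone 2, other processing was tried as well. The axon value of clone 2 stayed below 0 under 7 of 7 alternatives, at −2.47 to −1.34 on the z ratio scale and −0.9995 as a log2 ratio. It was no longer past the threshold with quantile normalization or a log2 ratio. In cell bodies the 3 clones had similar z ratios, at 0.19, 0.42 and 0.23, but this depended on the scaling. Their median-scaled ratios were 0.98, 1.19 and 1.61, and under the robust z-score their values were 0.52, 0.49 and −0.82.

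The same unstimulated axon value gave CCN1 clone 2 a z ratio of 1.65 for axons against cell bodies without stimulation, whereas with stimulation it was 0.13. It was the only member clone past the threshold in that comparison, in which 7.02% of clones were, and no member clone passed with stimulation, where 8.66% did. The clone just before it in spot order, CXCL10, had a z ratio of −1.97 in axons (33.66 in stimulated and 60.84 in unstimulated axons), and TRIM62 after it had −0.62. Their part in the value of this clone was not tested. Over all members, 5 of 15 clones were above 0 for axons against cell bodies without stimulation (45.5% of all clones) and 9 of 15 with stimulation (47.2%). Both counts varied with the processing. Without and with stimulation they were 9 and 9 with centring by place and 7 and 8 with the log2 ratio. With loess they were 4 and 7, and with the robust z-score 7 and 12.

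**Figure D3:**
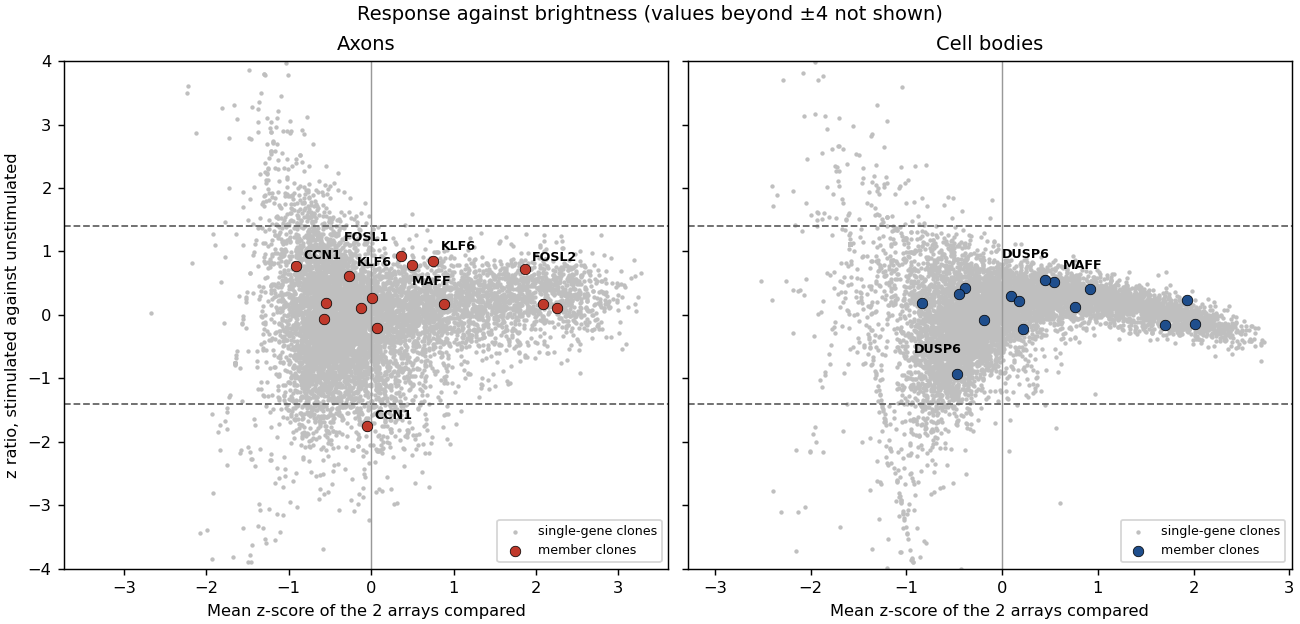
z ratio of stimulated against unstimulated, plotted against the mean z-score of both arrays, for all single-gene clones (grey) and member clones (coloured), in axons and in cell bodies; dashed lines mark 1.4 in size. The grey cloud is wider at low brightness, and FOSL1, FOSL2, MAFF and the brighter KLF6 clone lie near its upper edge in axons.

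The spread of the z ratio depended on brightness, with an SD of 0.64 for clones above the array mean and 1.07 for those below it in axons, and 0.30 and 1.01 in cell bodies. A single threshold therefore fell mostly on dim clones. Within clones of like brightness, KLF6 clone 2 exceeded 97.1% and FOSL2 93.9% in axons, next to FOSL1 and MAFF above. At the other end, IER2 stood at the middle of bright clones, with 49.9% below it. In cell bodies IER2 and FOSL2 were in the lower part, with 14.4% and 12.8% of bright clones below them, and GADD45A was in the upper part with 83.8%.

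The compartments were also compared for each member, as the axon response minus the cell body response, again in units of the SD of that quantity. The axon response was the larger in 7 of 9 genes and 9 of 15 clones, set against 49.3% of all genes and 48.7% of all single-gene clones, and the exceptions were GADD45A and CCN1. These counts depend on the scaling. As median-scaled log2 ratios, the cell body response was the larger for FOSL2 (0.35 against 0.31 in axons), MAFF (0.54 against 0.50) and IER2 (0.44 against −0.12). The axon response stayed the larger for FOSL1 (0.61 against 0.24 in cell bodies) and KLF6 clones 1 (0.48 against −0.052) and 2 (0.52 against 0.32). Of the single clones, DUSP6 clone 2 had the highest difference, at 0.81, followed by FOSL2 at 0.65. Only CCN1 clone 2 passed the threshold, at −1.58, where 7.03% of all clones did. For FOSL1 the difference was 0.53, and for the KLF6 clones 0.50 and 0.53. Both responses were above 0 in 5 genes and in 7 clones.

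**Figure D4:**
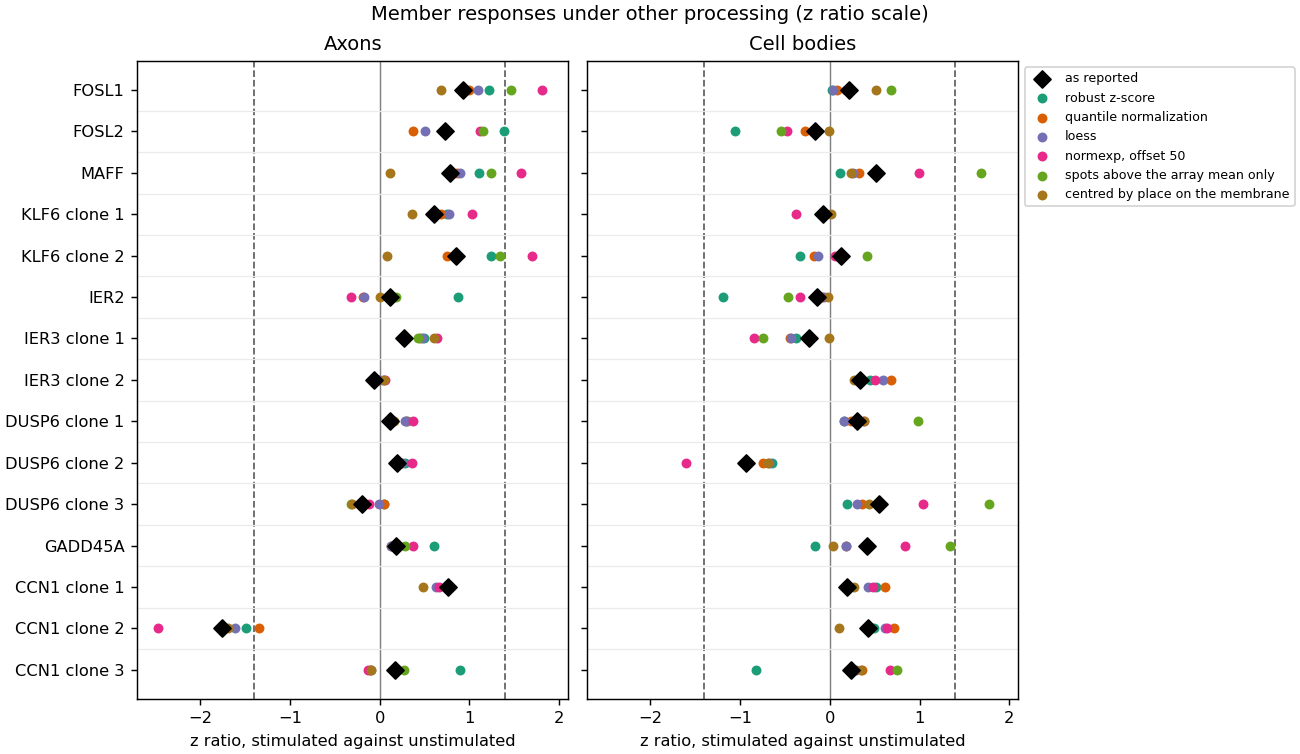
z ratio of each member clone as reported (black diamonds) and under 6 other processing choices on the same scale (coloured points), in axons and in cell bodies; dashed lines mark 1.4 in size. FOSL1, FOSL2, MAFF and both KLF6 clones stay right of 0 in axons under each choice, although MAFF falls to 0.12 and KLF6 clone 2 to 0.079.

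Of 15 clones, 11 kept the sign of their axon response under every alternative tried and 8 kept that of their cell body response. The identical other table and the spots above the array mean, which changed only the divisor, could not alter a sign. Scaling also moved the split of calls over all clones. In axons 284 clones passed upward and 476 downward, against 431 and 326 with a robust z-score and 299 and 217 with a median-centred log2 ratio. In cell bodies 127 passed upward and 288 downward, against 269 and 233 with the robust z-score and 81 and 338 with the log2 ratio.

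The profile over 4 z-scores nearest to that of FOSL1 was that of APMAP, at a Euclidean distance of 0.10, followed by TBPL1 (0.10) and SOCS6 (0.14). APMAP had an axon z ratio of 0.41, TBPL1 0.54 and SOCS6 0.70. The profiles nearest to MAFF, the member with the highest cell body response, were those of VEGFB, SLC18A1 and LINC00852, each at 0.07. These likenesses rest on 4 arrays.

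Of 61 other activity-induced genes listed beside the members, 33 had a single-gene clone. Over all 6284 genes, 7.83% passed in axons and 51.6% were above 0, and in cell bodies 4.34% passed and 54.9% were above 0, which is the background for this and the next lists. In axons 1 of the 33 passed upward and none downward, 16 were above 0 and their median was −0.06. In cell bodies 1 passed upward and 2 downward, 24 were above 0 and their median was 0.22. The nuclear receptor NR4A2 passed in axons (z ratio 2.32) with 36.1 in stimulated and the fill-in value of 10 in unstimulated axons, and neither lay above the blank spots. In cell bodies NAB2, a corepressor of Egr proteins, was at −4.08 with 1.48 in stimulated and 18.73 in unstimulated, and CREM, a cAMP-responsive modulator, at −2.30 with 7.31 in stimulated and 35.75 in unstimulated. GADD45G passed upward (4.98) through clone 2, which read 10 in stimulated and 0.21 in unstimulated cell bodies, while clone 1 had 0.36. Each of these calls thus had at least 1 side at or below the blank spots. CREM had 1.36 in axons, just under the threshold.

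Some classical immediate early genes were chosen after their values were seen, and none of their gene values passed the threshold. FOS read 115.9 in stimulated and 98.68 in unstimulated axons, with 157.06 in stimulated and 189.85 in unstimulated cell bodies, with z ratios of −0.11 in axons and 0.18 in cell bodies. JUN, over 2 clones, had −0.061 in axons and −1.32 in cell bodies. Its mean intensity in cell bodies was 429.5 with and 461.7 without stimulation, a smaller fall than that of the array medians. The values of its single clones are not given here. JUNB, over 3 clones, had −0.28 in axons and 0.27 in cell bodies, and NR4A1 had 0.060 in axons and 0.33 in cell bodies. ARC, which encodes a synaptic capsid-like protein, had −0.19 in axons and 0.20 in cell bodies. SGK1 had −1.22 and ATF3 −1.15 in axons.

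**Figure D5:**
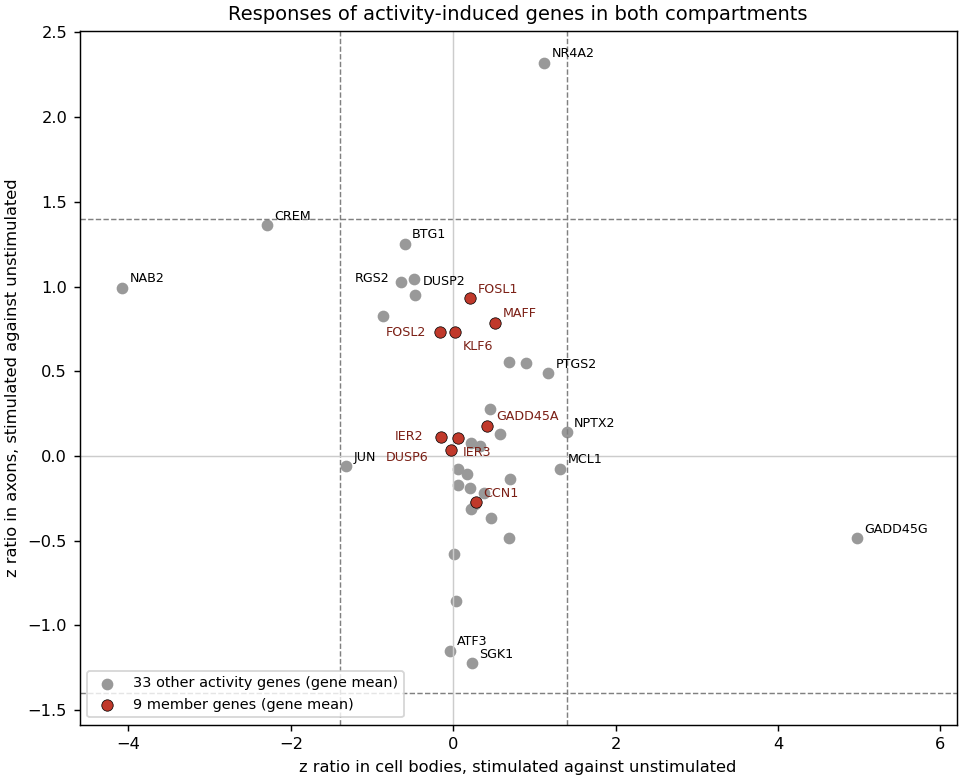
z ratio in axons (vertical) against z ratio in cell bodies (horizontal) for the 9 member genes (red) and 33 other activity-induced genes (grey), each the mean over its clones; dashed lines mark 1.4 in size. The grey genes beyond a dashed line, NR4A2, NAB2, CREM and GADD45G, rest on readings at or below the blank spots, NPTX2 at 1.397 in cell bodies is just inside a line, and all red points lie within the lines.

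Of 25 genes that carry signals to immediate early promoters, 8 were measured. In axons none passed and 6 were above 0, with a median of 0.29, and in cell bodies 1 passed downward and 5 were above 0. RPS6KA5, a nuclear kinase downstream of ERK and p38 that phosphorylates CREB and histone H3, had 1.15 in axons and −0.17 in cell bodies. CREB1, the factor that binds the cAMP response element, had 0.87 in axons and 0.77 in cell bodies. CAMK4, a calcium-dependent kinase of CREB, passed in cell bodies at −1.46, with 54.76 in stimulated and 153.05 in unstimulated.

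Among 15 listed partners of Fos and small Maf proteins, 7 were measured, and 1 of them was above 0 in axons, with a median of −0.73. That gene was MAFG, a small Maf protein like MAFF, at 0.96. NFE2L2, a stress factor that pairs with small Mafs, passed downward at −2.11, but its 12.22 in stimulated axons was below the blank spots of that array (22.36 in unstimulated axons). In cell bodies none passed, 4 were above 0 and the median was 0.27.

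Of 9 other dual-specificity phosphatases, 4 were above 0 in axons (median −0.17) and 4 in cell bodies (median −0.24). DUSP23 passed downward in axons, at −1.76, and read 307.29 in stimulated and 567.04 in unstimulated axons, both well above the blank spots. DUSP2, an inducible nuclear phosphatase of ERK, had 1.04 in axons, and DUSP11 had −1.25 in cell bodies. DUSP2 read 46.94 in stimulated and 23.08 in unstimulated axons, close to the 95th percentile of the blank spots (42.5 and 21.9). All 3 other KLF genes measured were above 0 in axons, KLF5 at 1.22, KLF10 at 0.55 and KLF13 at 0.48, and none passed. The mean intensity of KLF13 was below that percentile in axons, at 34.92 with and 21.5 without stimulation. CCN3 was the 1 other CCN gene measured, at 0.79 in axons and 0.41 in cell bodies. Of the GADD45 family and partners other than GADD45G, GADD45GIP1 had 0.44 in axons and CDKN1A, the p21 cell cycle inhibitor, −0.94 in cell bodies. IER5 had 0.079 in axons and IER3IP1 −0.64 in cell bodies.

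Markers were examined on the same arrays. Of 18 sensory neuron markers 7 were measured, and none passed in either response. Their summed intensity was 3542 in stimulated and 3499 in unstimulated axons, with 4950 in stimulated and 4957 in unstimulated cell bodies. UCHL1 made up most of the axon sums, at 2392 in stimulated and 2535 in unstimulated axons. Each of the other measured neuron markers read higher on stimulated axons, as the array median did, with RET at 585 in stimulated and 463 in unstimulated axons. Of 10 fibroblast markers 5 were measured, with sums of 11437 in stimulated and 9841 in unstimulated axons, and 12011 with and 12372 without stimulation in cell bodies. Most of this was fibronectin (FN1), a matrix gene also made by glia, which read 10815 in stimulated and 9268 in unstimulated axons. Of 10 Schwann cell and satellite glia markers 5 were measured, with sums of 1328 in stimulated and 982 in unstimulated axons, and 1389 with and 1603 without stimulation in cell bodies. Of 6 macrophage markers 3 were measured, with sums of 270 to 329 over the 4 arrays, and no endothelial marker was. The glial and fibroblast sums were higher on stimulated than on unstimulated axons, as the array medians were, but single markers went both ways. Most of the glial sum was SOX10, at 967 in stimulated and 681 in unstimulated axons, and the mean z-score of the glial markers was −0.34 in stimulated and −0.24 in unstimulated axons. GFAP passed downward in axons at −1.48, with 20.84 in stimulated and 29.67 in unstimulated axons, and ERBB3 had −1.22. Of the fibroblast markers PDGFRA passed upward in axons at 4.38, with 49.52 in stimulated and 5.65 in unstimulated axons, while DCN had −1.27. The 95th percentile of the blank spots was 42.5 on stimulated and 21.9 on unstimulated axons. GFAP with stimulation, PDGFRA without it and DCN on both arrays (15.27 with, 19.54 without stimulation) lay below it. The macrophage marker CD14 passed upward in cell bodies at 4.04, with 43.04 in stimulated and the fill-in value of 10 in unstimulated. The part of these cell types in the member values was not tested.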

How the data were processed

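Intensity values in arbitrary units were deposited by the authors for 9600 spots on each of 4 nylon arrays. RNA of each compartment was amplified, labelled with 33P, hybridized and read with a phosphor imager, and the sources used here do not state how background was treated. The values of both deposited tables were identical (0 of 38400 differed). Values of exactly 10 appear to be a fill-in. Spots without a name at places 25 and 50 of each row of 50 served as blank spots. Rows, places and neighbours were taken from the order of the spots, and coordinates on the membrane were not used.

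Genes came from the platform annotation, and clones that name several genes were left out. z-scores of log10 intensity and z ratios were computed over all spots, with 1.4 in size as threshold, and a gene value is the mean of its clones. With 1 array per condition no test was run and no paired fit exists. The members and lists were chosen with earlier results of these data known. Named were all members, the genes of each list past the threshold or with the largest responses, and the 3 nearest profiles of 2 members.

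Alternatives were a median-centred log2 ratio (threshold 1), a robust z-score, quantile normalization, loess (span 0.3), normexp (offset 50), spots above the array mean, 1 value per gene, thresholds of 1.3 and 2, the other table and, added after seeing the data, centring by place on the membrane and CCN1 without a clone. Python 3.11.15, numpy 2.4.6, pandas 2.3.3, R 4.3.3 and limma 3.58.1 were used, and the computation was tested on simulated data.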

Additional observations from a re-analysis of the deposited data

Results flagged for a closer look

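CCN1 clone 2 had responses of opposite sign in the compartments. Its z ratio was −1.75 in axons and 0.42 in cell bodies, and the axon minus cell body response was −1.58. With 1 array per condition this difference was not tested. CCN1 clones 1 and 3 had differences of 0.42 and −0.042. The clone read 179.05 on unstimulated axons and 85.36 to 102.84 on the other 3 arrays.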

How the results depend on the processing

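Of 495 values of single clones and genes under the alternatives, 482 moved by less than the SD of 1 clone, 13 moved by more, and no value past the threshold changed sign. This total includes the identical other table, whose values could not move. Values of 1 per gene and of spots above the array mean were only rescaled by a common factor. Log2 ratios were set directly against z ratios, although their units differ. The count therefore overstates how stable the values were. A threshold of 2 left 264 clones in the axon response (760 as reported), 210 in the cell body response (415), 231 for axons over cell bodies without stimulation (596) and 267 with it (736), and 0 member clones in place of 1 in the axon response and for axons over cell bodies without stimulation. With normexp these were 1197 in axons, 1169 in cell bodies and 1184 for axons over cell bodies without stimulation, and 4, 1 and 1 member clones passed in the axon response, the cell body response and with stimulation. With spots above the array mean alone, 384 clones passed in axons and 632 in cell bodies. Member clones then numbered 2 in cell bodies, 0 for axons over cell bodies without stimulation and 1 with it. The log2 ratio gave 1022 clones without and 1595 with stimulation between compartments, and the robust z-score gave 1253 with stimulation. Member clones past the threshold with stimulation numbered 1 with the log2 ratio, 3 with the robust z-score and 1 with centring by place. In the axon response 0 member clones passed with quantile normalization or the log2 ratio, and with 1 value per gene 0 member genes did, as was the case for axons over cell bodies without stimulation (0). The causes were not tested. No paired analysis was possible because each condition has 1 array. Dim clones limit precision, since blank spots on stimulated axons reached 42.5 at their 95th percentile, and single membranes leave the error between cultures unknown.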
